A study of Mus musculus with 6 samples.

Results

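The proteasome is the protease complex that degrades most ubiquitin-tagged proteins of a cell. Its 20S core is a barrel of stacked alpha and beta rings, in which the beta subunits Psmb5, Psmb6 and Psmb7 carry the active sites. In cells exposed to interferon-gamma, newly built cores take up the inducible subunits Psmb8, Psmb9 and Psmb10 in their place, giving the immunoproteasome, which generates peptides for presentation on MHC class I molecules. The 19S cap on the end of the barrel recognises, unfolds and feeds in substrates, and the PA28 activator, made of Psme1 and Psme2, can take its place. Cardiomyocytes rely on this system to turn over sarcomeric and damaged proteins. Proteasome genes are transcribed together under NRF1, encoded by Nfe2l1, which becomes active when proteasome capacity falls short.

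Proteasome genes were taken by name, as every gene called Psma to Psmg followed by a number. The rule found 48 of the 43432 genes in the table, of which 24679 had any read. The RNA was total RNA of right plus left atria of wild-type C57BL/6J mice, which began either HFD (high-fat diet) or control chow at 6 weeks of age and stayed on it for 10 weeks. Each group held 3 libraries, and every mouse was wild type, so diet was the labelled difference. HFD is used here as a model of diet-induced obesity in a mouse with no transgene. Whole atrial tissue was sequenced, so fewer cells of a type and less RNA per cell cannot be told apart. Diets were read from the titles of the samples and from the column names. In all 6 libraries a separate treatment field names the other diet, so every direction given here rests on the titles.

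Values are normalized counts, meaning reads divided by a factor that brings libraries of different depth to one scale. The libraries held 15874251 to 28971508 gene-assigned reads, control mouse 2 being the deepest, with 30.7% mitochondrial reads against 19.5% to 24.4% in the other mice. The atrial myocyte markers Myl7, Nppa, Sln, Myl4 and Bmp10 were abundant in every library, as the label of the tissue has it. Their summed level separated the HFD mice, at 285064 in HFD mouse 1, 285797 in HFD mouse 2 and 518575 in HFD mouse 3 against 440112 to 480118 in the controls. The summed ventricular markers were highest in control mouse 2, at 13770 against 4262 to 6415 in the other mice.

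The transcripts of the standard proteasome were present at high and similar levels in all 6 mice. Counts of different genes can be compared only per length, so each was divided by the length of its main annotated transcript. On this scale Psmc3, an ATPase of the 19S base, was the most abundant, at 1653 ± 141 normalized counts per kb (SD, n = 6 mice), followed by the catalytic subunit Psmb6 at 1506 ± 149. The overlapping gene Slc39a13, on the opposite strand to Psmc3, had a mean of 1225 normalized counts against 2704 for Psmc3, and whether the counting used strand is not given in the sources used here. Next in order of level per kb came the structural beta subunit Psmb4 at 1285, the alpha ring subunit Psma7 at 1263, the catalytic subunit Psmb7 at 1209 and the 19S scaffold Psmd2 at 1201. From Psmb4 to Psmd2 each gene differed from the next by less than the SD of at least 1 of them, while Psmb6 lay above Psmb4 by more than the SD of either (149 and 139 per kb).

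The inducible catalytic subunits were below the constitutive subunits that they replace per kb, by a margin that depends on the length used. Psmb10 averaged 326 ± 93.7, Psmb8 208 ± 81.2 and Psmb9 131 ± 49.1 normalized counts per kb (SD, n = 6 mice), against 1209 for Psmb7, 898 for Psmb5 and 1506 for Psmb6. By this length the lowest of the tested genes was Psmd5, a chaperone of 19S assembly, at 72.5 per kb of main transcript. With the length of all annotated exons, Psmb10 stood at 251 per kb against 410 for Psmb7, Psmb8 at 100.1 against 898 for Psmb5, and Psmb9 at 48.5 against 642 for Psmb6. With that length Psmb6 moved from rank 2 to 10, Psmb5 from 17 to 2 and Psma7 from 4 to 22. The lowest tested gene was then Psmd9, at 36.3 per kb, with Psmd5 at 44.1. Other genes overlap some of these loci, with Mir686 at a mean of 102 normalized counts in Psmb5, Emc9 at 268 beside Psme1 and Nek6 at 119 beside Psmb7. The annotated pseudogenes of Psmb5, Psmb6 and Psmb7 had at most 1.12 normalized counts in any library.

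**Figure D1:**
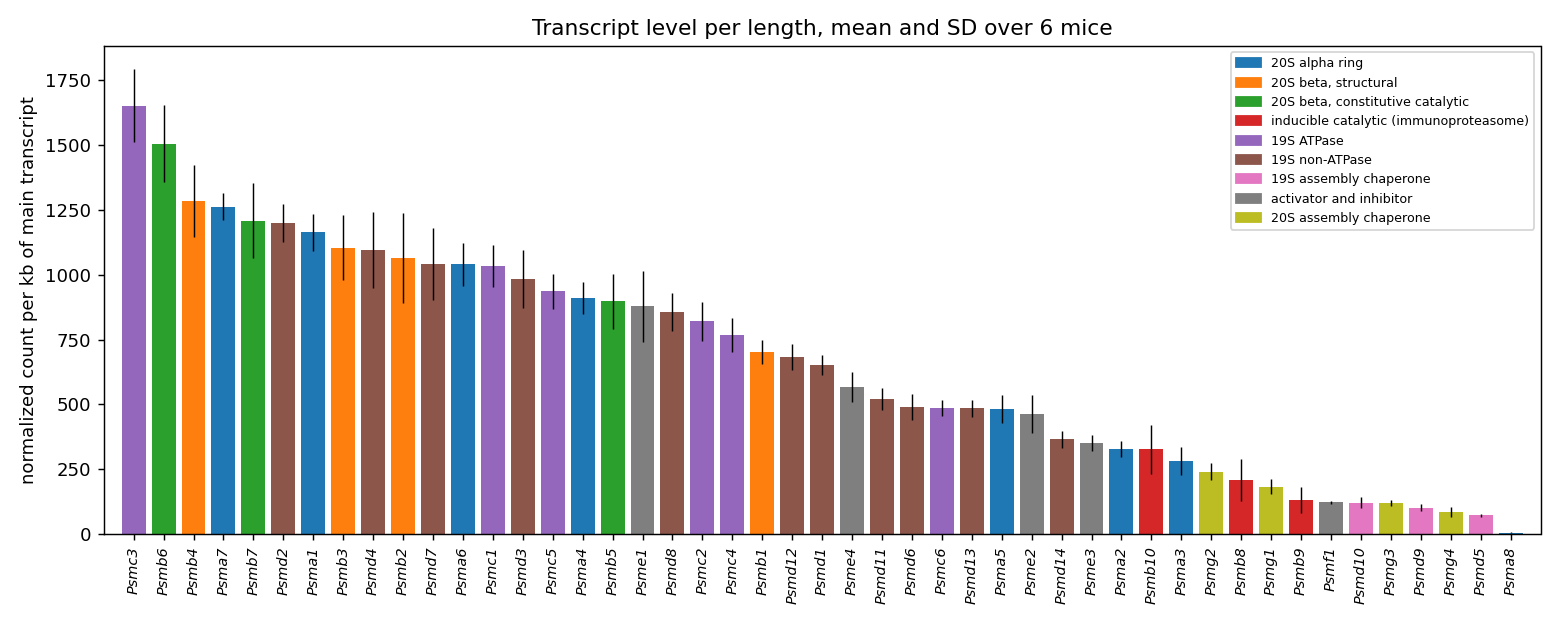
Mean level of each detected proteasome gene over 6 mice in normalized counts per kb of main transcript, with bars for the mean, lines for the SD between mice and colours for the role. The inducible catalytic subunits Psmb10, Psmb8 and Psmb9 stand at 326, 208 and 131, below Psmb7, Psmb5 and Psmb6 at 1209, 898 and 1506.

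Psmb8, Psmb9, Tap1 and Tap2 are neighbours in the MHC region of mouse chromosome 17. In GRCm38, Psmb9 lies at chr17:34181988-34187764 on the minus strand and overlaps the start of Tap1, at chr17:34187553-34197225 on the plus strand, and Psmb8 follows at chr17:34197721-34201454. Tap1 had a mean of 385 normalized counts against 177 for Psmb9, and reads of the shared stretch cannot be assigned without strand. Psmb10 lies apart, on chromosome 8. The promoters of the inducible subunits are shown beside those of Psmb5 and Psmb6, since these are the genes whose products replace each other in the core. Each window runs from 250 bases before to 50 after a RefSeq start and is written 5' to 3' along the gene. Capitals mark a match on either strand to TTCNNNGAA, the gamma-activated site (GAS) of interferon-gamma signalling, or to TGACNNNGC, the antioxidant response element (ARE) that NRF1 binds with small MAF proteins. In GRCm38.p6 they lie at chr17:34197945-34198244 (plus strand) for Psmb8, chr17:34187281-34187580 (minus) for Psmb9, chr8:105938343-105938642 (minus) for Psmb10, chr14:54617946-54618245 (minus) for Psmb5 and chr11:70525107-70525406 (plus) for Psmb6.
Psmb8: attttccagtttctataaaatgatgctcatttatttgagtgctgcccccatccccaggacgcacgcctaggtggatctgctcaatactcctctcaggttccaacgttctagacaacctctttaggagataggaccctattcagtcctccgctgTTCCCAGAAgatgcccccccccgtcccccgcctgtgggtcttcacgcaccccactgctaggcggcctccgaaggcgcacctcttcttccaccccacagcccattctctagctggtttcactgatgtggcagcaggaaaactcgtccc
Psmb9: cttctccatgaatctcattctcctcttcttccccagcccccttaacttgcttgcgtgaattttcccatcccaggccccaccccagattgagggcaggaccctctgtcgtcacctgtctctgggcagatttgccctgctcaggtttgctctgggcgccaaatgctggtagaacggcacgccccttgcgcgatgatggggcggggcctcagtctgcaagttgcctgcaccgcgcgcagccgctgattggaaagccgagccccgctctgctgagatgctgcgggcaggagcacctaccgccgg
Psmb10: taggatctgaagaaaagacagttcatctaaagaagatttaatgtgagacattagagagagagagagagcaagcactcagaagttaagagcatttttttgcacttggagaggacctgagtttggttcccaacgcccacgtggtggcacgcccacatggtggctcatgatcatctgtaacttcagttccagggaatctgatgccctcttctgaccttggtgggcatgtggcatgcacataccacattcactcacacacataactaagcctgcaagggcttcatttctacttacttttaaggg
Psmb5: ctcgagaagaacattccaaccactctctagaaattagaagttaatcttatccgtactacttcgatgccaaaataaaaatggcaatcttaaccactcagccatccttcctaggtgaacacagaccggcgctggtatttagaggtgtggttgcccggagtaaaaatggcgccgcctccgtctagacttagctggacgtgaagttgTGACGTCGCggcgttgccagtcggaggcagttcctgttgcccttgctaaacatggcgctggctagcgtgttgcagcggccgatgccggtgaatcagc
Psmb6: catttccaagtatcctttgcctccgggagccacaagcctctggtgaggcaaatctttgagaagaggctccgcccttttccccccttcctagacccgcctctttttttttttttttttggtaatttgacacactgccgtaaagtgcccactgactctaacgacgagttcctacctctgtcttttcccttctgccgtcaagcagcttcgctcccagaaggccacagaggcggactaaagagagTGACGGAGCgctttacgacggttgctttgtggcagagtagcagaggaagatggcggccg

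Of the inducible subunits, only Psmb8 held a GAS match in its window, starting 97 bases before the RefSeq start. By the coordinates above, the windows of Psmb8 and Psmb9 lie inside the annotated genes. Sequence before those annotated gene starts was therefore not searched. The ARE match began 47 bases before the start in Psmb5 and 9 bases before it in Psmb6. Windows were given for 40 of the 48 proteasome genes, 43 in all, and Psmb7 was not among them. The ARE was found in 13.95% of these windows and in 12.4% of all 32851 mouse windows, and the GAS in 6.98% and 8.30%. The NF-Y box CCAAT was in 32.6% and 37.4%. The interferon-stimulated response element was in 5 of the 43 (11.6%) against 3.44% of all windows, in Psmb3, Psmd4, Psmd9, Psme1 and Psmg4. A match is a run of letters in this window and not a measured site.

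A pair of genes were at or near 0 and were not tested. Psmb11, the catalytic subunit of thymic epithelium, had no read in any library, where 3 reads would be 2.05 to 3.41 normalized counts. Psma8, the germ-cell counterpart of Psma7, had 5.0, 9.2 and 4.5 normalized counts in the HFD mice and 11.2, 7.5 and 4.4 in the controls. The other 46 passed the filter of a mean of at least 10 normalized counts over all 6 mice.

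The comparison of HFD with control asked which proteasome genes differ in the atria after 10 weeks of diet. No subunit rose or fell past the threshold for all genes tested. Psma3, a subunit of the alpha ring, was the only one to pass an unadjusted test, and was higher in HFD. The 46 genes had a median log2 fold change of -0.01, against 0.00 over all 15275 genes tested, with 21 higher and 25 lower. Their log2 fold changes ran from -0.35 for Psmd10 to 0.41 for Psma3, and their median size was 0.08 against 0.18 over all genes tested. The 46 genes were also more abundant, at a mean log2 level of 9.64 in control against 7.87 over all genes tested. These sizes, and the interval widths given below, were not compared at matched level.

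By limma, 0 of the 46 had an adjusted p under 0.05, against 0.746% of all genes tested. At an unadjusted p under 0.05, 1 was higher, against 6.66% of all genes tested, and 0 were lower, against 5.55%. The counts were the same with edgeR under both scalings and with DESeq2, at 0 past the adjusted threshold, 1 higher and 0 lower. In 1 of the 46 every HFD mouse lay above every control mouse, against 8.86% of all genes tested, and in 3 every HFD mouse lay below, against 9.17%. For 35 of the 46 the 95% interval of the log2 fold change lay within 0.5 of zero, against 5290 of all 15275 genes tested. For all 46 the interval lay within 1, against 11321 of all genes tested. The median distance from the estimate to the end of its interval was 0.29, against 0.40 over all genes tested.

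**Figure D2:**
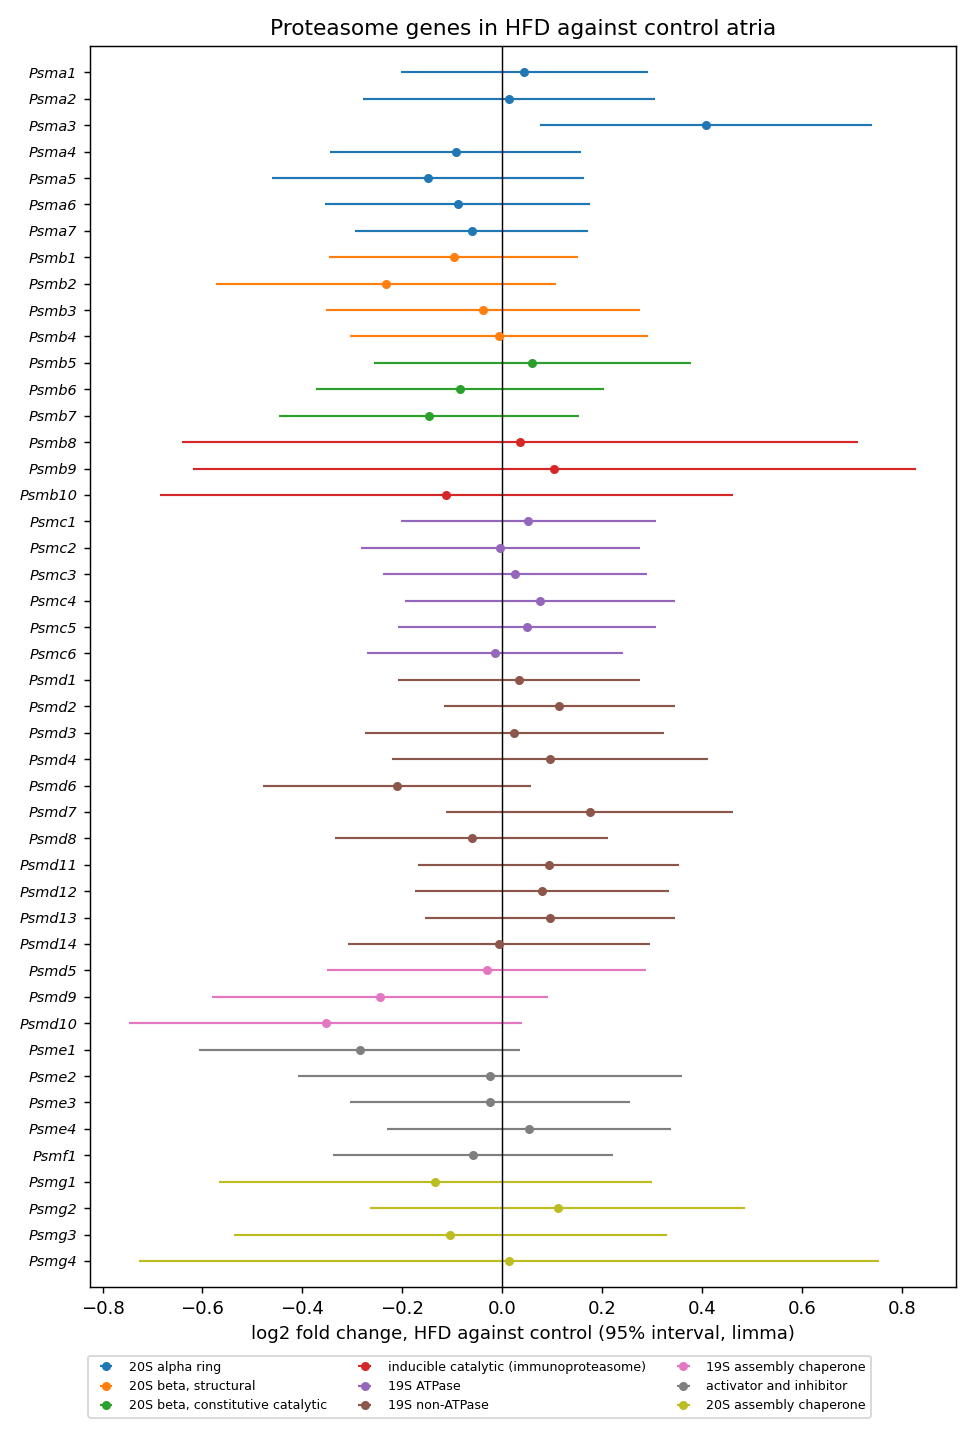
Log2 fold change of HFD against control for the 46 tested proteasome genes, as points with the 95% interval from limma, coloured by role. Only the interval of Psma3 (0.08 to 0.74) leaves out 0, and the widest intervals are those of Psmb8, Psmb9 and Psmg4.

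Psma3 had 1016.6, 800.6 and 905.3 normalized counts in the HFD mice and 569.9, 700.1 and 789.2 in the controls. The groups did not overlap, but the lowest HFD mouse and the highest control were close. The log2 fold change was 0.41 (95% interval 0.08 to 0.74, p = 0.0209, adjusted p = 0.301 by limma), and an exact permutation test, two-sided, gave p = 0.1, the lowest value possible for groups of 3. The antisense gene 3110056K07Rik overlaps Psma3, at a mean of 63.0 normalized counts against 797 for Psma3, and without knowledge of strand use the reads of the pair cannot be told apart. The other alpha ring subunits, whose N-termini form the gate of the barrel, lay between -0.15 for Psma5 and 0.04 for Psma1, with no test passed.

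All 4 structural beta subunits had negative values, from -0.23 for Psmb2 to -0.01 for Psmb4, and none passed the test. The constitutive catalytic subunits had a median log2 fold change of -0.08. Psmb5, which carries the chymotrypsin-like site, had 820.7, 729.2 and 918.9 normalized counts in the HFD mice and 769.2, 916.4 and 688.6 in the controls. Psmb6, the caspase-like subunit, had 1314.0, 990.2 and 1206.2 against 1279.8, 1271.6 and 1149.9. Psmb7, the trypsin-like subunit, had 1382.3, 1124.9 and 1493.6 against 1385.0, 1637.7 and 1389.3. In each of these the groups overlapped, and HFD mouse 2 was the lowest HFD mouse. Their log2 fold changes were 0.06 (-0.26 to 0.38), -0.08 (-0.37 to 0.20) and -0.15 (-0.45 to 0.15).

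No 19S subunit passed the test. The 6 ATPases of the base, Psmc1 to Psmc6, which unfold the substrate, lay between -0.01 and 0.08, and every one of their 95% intervals lay within 0.5 of zero. Of the 11 non-ATPase subunits 8 were higher, with a median of 0.08 and a range of -0.21 to 0.18. Psmd7, a partner of the deubiquitinase Psmd14 in the lid, was the highest of them at 0.18 (-0.11 to 0.46), and its groups overlapped, with HFD mouse 1 at 2089.5 and the other 5 mice at 1522.1 to 1622.0. Psmd6, a lid subunit, was the lowest at -0.21 (-0.48 to 0.06), with 619.8, 595.6 and 670.1 normalized counts in HFD and 670.7, 782.3 and 731.2 in the controls, groups that did not overlap by a margin of less than 1 normalized count. Psmd14 itself was at -0.01. For Psmd13 the overlapping pseudogene Gm15542, on the same strand, was listed at a mean of 605 normalized counts against 963 for Psmd13, so its value is uncertain.

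The 3 chaperones that assemble the 19S base, Psmd5, Psmd9 and Psmd10, had the lowest median of the roles at -0.25, with no test passed. Psmd10, also known as gankyrin, had 162.7, 126.5 and 167.0 normalized counts in the HFD mice and 179.1, 208.7 and 192.4 in the controls. Every HFD mouse lay below every control, and the log2 fold change was -0.35 (-0.75 to 0.04, adjusted p = 0.467 by limma). Psmd9 was at -0.25 (-0.58 to 0.09), with 265.2, 215.2 and 241.9 against 274.3, 313.4 and 267.8 and again no overlap. Psmd5 was at -0.03, with groups that overlapped. The 4 chaperones of 20S assembly, Psmg1 to Psmg4, were split, with 2 higher and 2 lower.

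Among the activators, Psme1 had 903.1, 727.1 and 1020.0 normalized counts in HFD and 1057.0, 1175.8 and 976.1 in control. The groups overlapped through HFD mouse 3, and the log2 fold change was -0.29 (-0.61 to 0.04, adjusted p = 0.473 by limma). Psme2, its partner in PA28, had 435.0, 362.0 and 530.4 against 387.4, 523.6 and 432.8, a log2 fold change of -0.02 (-0.41 to 0.36) with full overlap. The nuclear activator Psme3 was at -0.02, the activator PA200, encoded by Psme4, at 0.05, and the inhibitor PI31, encoded by Psmf1, at -0.06. Among the 5 genes with an interferon-stimulated response element in the promoter window, Psme1 included, the log2 fold changes ran from -0.29 in Psme1 to 0.10 in Psmd4.

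The mice differed more among themselves than the groups did. HFD mouse 2 was the lowest of the 6 in 26 of the 46 genes, whereas it was the lowest in 19.03% of all genes tested. The mean log2 level over the 46 genes averaged 9.62 in HFD and 9.64 in control, and was 9.65, 9.47 and 9.75 in HFD mice 1 to 3 and 9.63, 9.72 and 9.58 in control mice 1 to 3. The HFD mice therefore spanned the range of the controls and beyond it on both sides. HFD mouse 2 was also the lowest of the 6 mice in the atrial myocyte markers Myl7, Sln and Myl4, at 27168, 19693 and 54353 normalized counts. It was not the lowest in Nppa, at 179008 against 171702 in HFD mouse 1, or in Bmp10, at 5575 against 1375 in control mouse 2. Over all 5 atrial markers the summed level was highest in HFD mouse 3, at 518575, and lowest in HFD mouse 1, at 285064. HFD mouse 1 was the lowest mouse in 3 of the 46 proteasome genes and the highest in 12. The part of myocyte content in these levels was not tested.

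**Figure D3:**
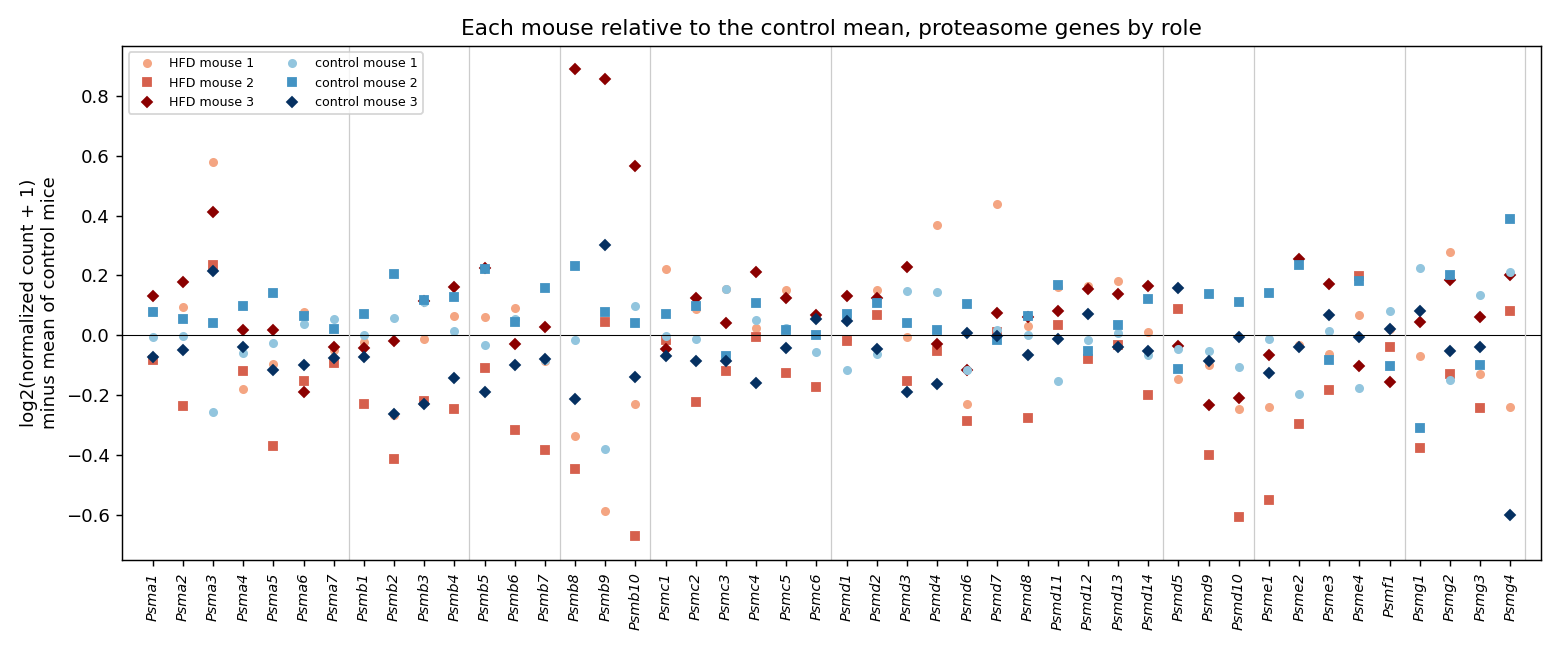
Level of each proteasome gene in each mouse, as log2(normalized count + 1) minus the mean of the 3 control mice, with genes grouped by role between the vertical lines. HFD mouse 2 (squares) is the lowest mouse in 26 of 46 genes, and HFD mouse 3 (dark diamonds) stands above all other mice at Psmb8, Psmb9 and Psmb10.

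The inducible catalytic subunits were the most variable group of the complex, and the variation lay within the HFD group. HFD mouse 3 had the highest level of all 3, while HFD mice 1 and 2 were at or under the level of most controls. Psmb8 had 251.1, 232.5 and 588.4 normalized counts in the HFD mice and 313.5, 372.3 and 273.3 in the controls. Psmb9 had 107.5, 167.3 and 294.2 against 124.3, 171.1 and 200.03. Psmb10 had 366.7, 269.2 and 637.2 against 460.2, 442.1 and 390.2. HFD mouse 3 thus exceeded the next mouse 1.58 times in Psmb8, 1.47 times in Psmb9 and 1.38 times in Psmb10. Over the 3 genes, the median SD of the log2 level was 0.72 in HFD against 0.22 in control, where the 46 genes had 0.17 and 0.12.

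The groups overlapped in each of these genes, and the log2 fold changes were 0.04 for Psmb8 (-0.64 to 0.71), 0.10 for Psmb9 (-0.62 to 0.83) and -0.11 for Psmb10 (-0.69 to 0.46). They depended on HFD mouse 3. Without it the values were -0.39 for Psmb8 (adjusted p = 0.337 by limma), -0.27 for Psmb9 (adjusted p = 0.685) and -0.45 for Psmb10 (adjusted p = 0.247), and 4 of the 46 genes, Psmb8 and Psmb10 among them, were lower at an unadjusted p under 0.05 in place of 0, against 6.83% of all genes in that fit. Over all alternatives the adjusted p was 0.337 to 0.992 for Psmb8, 0.586 to 0.971 for Psmb9 and 0.247 to 0.990 for Psmb10.

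**Figure D4:**
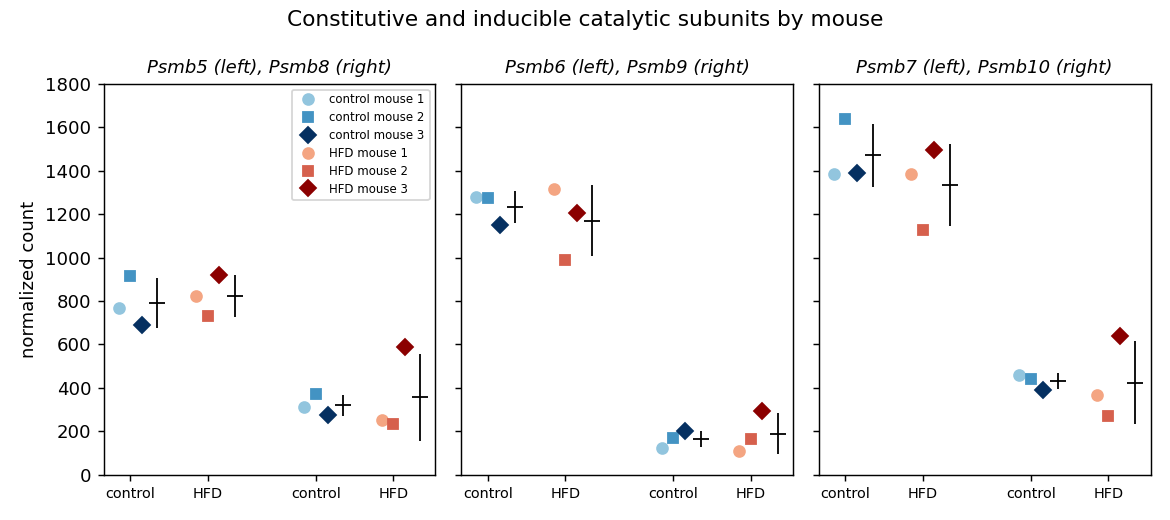
Normalized counts of the 3 constitutive catalytic subunits (left in each panel) and of the inducible subunit that replaces each (right), by mouse, with the mean and SD of each group of 3 as black lines. HFD mouse 3 is the highest mouse for Psmb8 (588.4), Psmb9 (294.2) and Psmb10 (637.2), but lies within or near the other mice for Psmb5, Psmb6 and Psmb7.

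Ratios of each inducible subunit to the subunit it replaces set aside changes shared by the whole complex. The log2 ratio of Psmb8 to Psmb5 was -1.70, -1.64 and -0.64 in the HFD mice and -1.29, -1.30 and -1.33 in the controls. The controls were nearly equal, with an SD of 0.02 against 0.60 in HFD, and HFD mice lay on both sides of them. The ratio of Psmb9 to Psmb6 was -3.60, -2.56 and -2.03 against -3.35, -2.89 and -2.52. The ratio of Psmb10 to Psmb7 was -1.91, -2.06 and -1.23 against -1.59, -1.89 and -1.83. The differences between the groups were -0.02, 0.19 and 0.04, smaller than the SD of the HFD mice in each case. Exact permutation tests, two-sided, gave p = 1, 0.8 and 1, and 1 for each after adjustment over the 3 ratios. Without HFD mouse 3 all 3 differences were negative, at -0.37, -0.16 and -0.22.

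Genes that act with the immunoproteasome in interferon signalling and antigen presentation were listed to see whether they were also high in HFD mouse 3. The list was chosen with earlier results of these data known, and Ifng, 1 of its 11 genes, was too low to be tested. Of the 11 listed, HFD mouse 3 was the highest mouse in 8, against 20.3% of all genes tested. In 3 it exceeded every other mouse by over 1.5 times, which held for 361 of all 15275 genes tested (2.36%) and for 1 of the 46 proteasome genes, Psmb8. Nlrc5, the activator of MHC class I genes, had 49.2, 68.3 and 313.5 normalized counts in HFD and 41.4, 137.6 and 88.5 in control. Tap1, a subunit of the transporter that carries proteasomal peptides into the endoplasmic reticulum, had 219.0, 234.6 and 839.4 against 258.6, 412.7 and 347.6. In these genes HFD mice 1 and 2 lay within or below the range of the controls, and only HFD mouse 3 stood above it. The MHC class I light chain B2m had 3432.6, 3442.9 and 8006.4 against 3884.1, 4961.1 and 3644.2, with HFD mouse 3 again the highest.

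Between the diets, 0 of the 10 partners tested were higher at an unadjusted p under 0.05 by limma and 1 was lower. The shares over all genes tested were 6.66% and 5.55%, and no partner passed the adjusted threshold. The lower one was Ifngr2, a chain of the interferon-gamma receptor, with a log2 fold change of -0.41 (-0.68 to -0.13, adjusted p = 0.184). Ifng itself was at or near 0, at 0, 0 and 3.4 normalized counts in HFD and 0, 3.4 and 5.5 in control. Lymphocyte markers were low in all mice, with Nkg7 at 38.6 in HFD mouse 3 and at most 6.7 in the others, and Cd3d at 20.4 and at most 6.7. The summed level of 11 leukocyte markers was 7867 to 9480 in HFD and 6196 to 8092 in control. Nkg7 and Cd3d were at 0 in some libraries. HFD mouse 3 was the highest mouse in 6 of the 11, some of them too low to be tested, against the same 20.3% of all genes tested. The part of these cells in the level of Psmb8 was not tested.

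**Figure D5:**
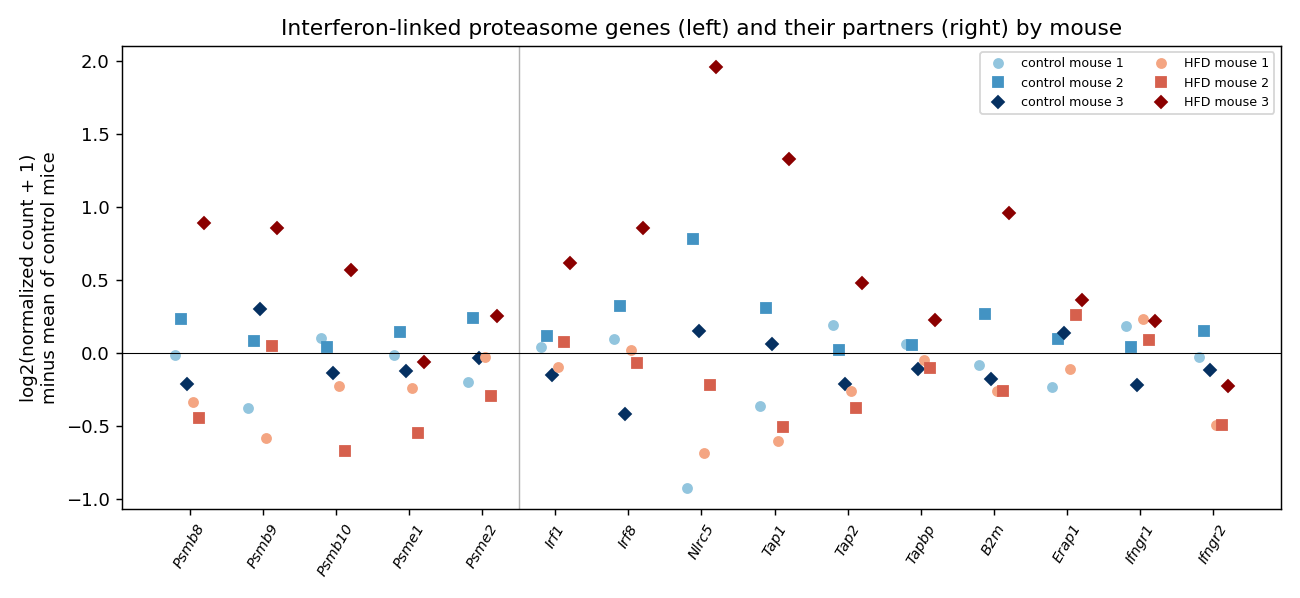
Levels of the interferon-linked proteasome genes (left of the line) and of 10 partner genes (right) in each mouse, as log2(normalized count + 1) minus the mean of the 3 control mice. HFD mouse 3 (dark red diamonds) stands apart at Psmb8, Nlrc5, Tap1 and B2m, while Psme1 and Ifngr2 lie within the range of the other mice or below the controls.

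The regulators of proteasome gene transcription were tested in the same fit, to set their levels beside those of the subunits. Of 13 listed regulators, all tested, 4 were higher and 1 lower at an unadjusted p under 0.05 by limma. The shares over all genes tested were 6.66% and 5.55%, and 1 regulator, Mafg, rose past the adjusted threshold. This list too was chosen with earlier results of these data known, so the count is not independent of them. Nfe2l1, the gene of NRF1, had 8820.1, 10381.8 and 9120.7 normalized counts in HFD and 7075.2, 7240.1 and 7159.4 in control. The log2 fold changes of the 6 proteasome genes whose windows hold the ARE letters ran from -0.25 in Psmd9 to 0.08 in Psmd12. Psmb5 and Psmb6, which are among these 6, were at 0.06 and -0.08. The letters were about as common in the windows of all genes, at 12.4% against 13.95%. A match alone therefore cannot identify a target of NRF1, and binding of NRF1 was not measured. The groups did not overlap for Nfe2l1, and its log2 fold change was 0.40 (0.15 to 0.64, adjusted p = 0.149). Ddi2, the protease that cleaves NRF1 into its active form, had 1016.6, 1109.6 and 908.7 against 679.6, 650.8 and 756.4, a log2 fold change of 0.54 (0.26 to 0.81, adjusted p = 0.086), again with no overlap.

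The small MAF proteins pair with NRF1 and NRF2 on DNA. Mafg had 1336.1, 1464.5 and 1462.9 normalized counts in HFD and 1017.8, 942.4 and 924.7 in control, a log2 fold change of 0.56 (0.32 to 0.80, adjusted p = 0.0497). This call lay at the threshold and was lost in 12 of 16 alternative settings, in which the log2 fold change stayed positive. Maff had 193.9, 200.9 and 336.2 against 131.0, 105.4 and 106.0, a log2 fold change of 1.05 (0.53 to 1.56, adjusted p = 0.0741). All HFD mice lay above all controls in both genes, with HFD mouse 3 the highest for Maff. By DESeq2 on the recovered reads all 4 passed the adjusted threshold. Over all alternatives, DESeq2 included, the adjusted p was 0.0243 to 0.431 for Nfe2l1, 0.0118 to 0.336 for Ddi2, 0.00146 to 0.220 for Mafg and 0.00292 to 0.266 for Maff, and that of Ddi2 was 0.0371 by limma without HFD mouse 3. The gene that was lower was Nfyc, a subunit of the CCAAT-binding factor NF-Y, at -0.37 (-0.62 to -0.13, adjusted p = 0.175). Nfe2l2, the gene of NRF2, was at -0.05 and Ngly1, the enzyme that deglycosylates NRF1, at -0.03, and neither passed the test.

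Endothelial, leukocyte and adipocyte markers mostly lay in the same direction as the higher regulators, with median log2 fold changes of 0.14, 0.36 and 0.45. Fibroblast, atrial myocyte and ventricular myocyte markers had negative medians, at -0.15, -0.40 and -0.37. The summed level of the 5 endothelial markers was 14087 to 15398 in HFD and 11802 to 12280 in control. Pecam1 was at a log2 fold change of 0.57 (adjusted p = 0.0504 by limma). The others, Tie1, Kdr, Emcn and Cdh5, were at 0.16, 0.14, 0.13 and 0.04, with no test passed, and the groups overlapped in Kdr, Emcn and Cdh5. The summed fibroblast markers were 26229 to 29659 in HFD and 27650 to 32702 in control, and the adipocyte markers 482 to 1866 and 283 to 1335. Their part in the levels of the regulators was not tested.

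Genes that supply ubiquitin or deliver substrates were listed next. Of 9 tested, 1 was higher at an unadjusted p under 0.05 by limma and 0 lower, against 6.66% and 5.55% of all genes tested. None passed the adjusted threshold. The higher gene was Nploc4, a cofactor of the unfoldase VCP, at a log2 fold change of 0.33 (0.07 to 0.58, adjusted p = 0.267). VCP itself, encoded by Vcp, was at 0.15, and Ubb and Rps27a, which encode ubiquitin and can share reads, were at 0.08 and -0.16. Of 15 proteins that join or assist the proteasome, 0 passed an unadjusted p under 0.05 by limma in either direction, against those same shares. The 15 include the 19S subunits Sem1 and Adrm1, which the name rule leaves out, at -0.25 and -0.19, and the maturation factor Pomp at -0.09.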

How the data were processed

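Per the labels, atrial RNA was made into directional libraries, and the study's methods give single-end 50 bp reads. Reads were aligned by STAR to GRCm38, unique alignments were kept, Salmon assigned them to genes and DESeq2 scaled them, after FastQC; versions are not given in the sources used here. The deposited values are a signal, gene counts divided by size factors by the authors. The table also holds columns of the authors' own comparison of the diets (fold changes and p-values), which were not used. In each library 100% of values were whole multiples of the value of 1 read (tolerance 0.01), which gave back the reads and the depth. Depth was 15874251 to 28971508 reads, and intervals or limits based on 3 reads cover counting error only. Of the gene IDs, 42462 (97.8%) matched the GRCm38 annotation. A row without a gene name, 1 in number and 0 in every library, was left out.

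Groups followed the sample titles. Samples are called mice by their number in the titles, and p-values measure the spread between these samples, since the labels do not state that each is 1 animal. limma 3.58.1 (R 4.3.3, variance trend) was fitted to log2(normalized count + 1), so fold changes of low genes are understated, keeping genes whose mean over the 6 mice reached 10, and p-values were adjusted over all 15275 genes by Benjamini-Hochberg. Alternatives were another pseudocount, filter and scaling, edgeR 4.0.16 quasi-likelihood and DESeq2 1.42.0 on the recovered reads, a replicate block, and leaving out each mouse. Steps were tested on simulated data. Named were Psmb5 to Psmb10, Psme1, Psme2, genes at an unadjusted p under 0.05 (at most 5 a pathway list) and the largest rise and fall. Psmd6, Psmd7, Psmd9 and other subunits were named after their values were seen. The proteasome genes and all lists were chosen with earlier results of these data known. Promoters are RefSeq windows of GRCm38.p6. Some genes of the pathway lists are not reported here, and the counts leave them out.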

Additional observations from a re-analysis of the deposited data

How the results depend on the processing

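No proteasome gene passed the adjusted threshold in any of the 16 alternatives. Psma3 was the 1 gene higher at an unadjusted p under 0.05, and 0 were without the variance trend. Leaving out each mouse gave 0 to 1 higher (0 without HFD mouse 1 or control mouse 1) and 0 to 4 lower, with Psme1, Psmb2, Psmb8 and Psmb10 lower without HFD mouse 3, and Psmb2 without control mouse 3. Under quantile normalization 1 was lower, Psme1. Leaving out each mouse, the median log2 fold change ran from -0.32 to -0.17 for the 19S assembly chaperones and from -0.123 to -0.0186 for the activators and inhibitor. The sign of small values turned in the same runs, from -0.0353 to 0.17 for Psmb5, -0.17 to 0.0309 for Psmb6, -0.39 to 0.28 for Psmb8, -0.27 to 0.45 for Psmb9, -0.45 to 0.17 for Psmb10 and -0.16 to 0.11 for Psme2. The differences in log2 ratio ran from -0.37 to 0.16 for Psmb8 to Psmb5, which was 0.0021 under quantile normalization, from -0.16 to 0.62 for Psmb9 to Psmb6 and from -0.22 to 0.20 for Psmb10 to Psmb7. The cause was not tested.

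Samples with the same number did not deviate together (correlations 0.12, -0.03 and -0.004), so the numbers were not taken to pair them. With a replicate block, 0 proteasome genes passed the adjusted threshold, 1 was higher and 0 lower at an unadjusted p under 0.05, and 157 of all genes passed in place of 114. Over all genes, DESeq2 called 470, the fit without HFD mouse 3 called 318, and the fit without the variance trend 0 (1717 at an unadjusted p under 0.05).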
